A study of Mus musculus with 10 samples.

Results

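The translation initiation factor genes were taken as the protein-coding mouse genes whose symbol begins with Eif1, Eif2, Eif3, Eif4, Eif5 or Eif6. The symbols that start with Eif2s3 or Eif2ak were left out. The choice rests on gene names and uses no measured value. It gave 49 genes of the 55494 genes counted, 21989 of them protein-coding. Of the 49 genes, 48 had enough reads to be tested, and Eif4e1b, a form of the cap-binding protein known from germ cells, had 0 reads in each of the 10 libraries, which allows up to 3 reads, or 0.133 to 0.168 CPM.

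Initiation factors bring the small ribosomal subunit, the initiator tRNA and the mRNA together. In outline, eIF2 delivers the initiator tRNA, eIF2B recharges eIF2 with GTP, eIF3 scaffolds the complex, and eIF4F binds the cap and unwinds the leader. The factors eIF1, eIF1A and eIF5 set the accuracy of start codon choice, and eIF5B joins the large subunit. Cells regulate the process mainly at eIF2, whose alpha subunit is phosphorylated by stress kinases such as the sensor of double-stranded RNA encoded by Eif2ak2, and at eIF4E, which is held back by 4E-binding proteins under the control of mTORC1.

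The libraries were bulk RNA sequencing of leukemia initiating cells sorted from the spleen of pups aged 13 days that carry the RFP/RET fusion transgene on the Eμ immunoglobulin enhancer, which is active in the B lineage. Of these pups, 5 had been given 50 µl of PBS and 5 had been given 20 µg of Poly(A:U), an RNA duplex made synthetically and bound by Toll-like receptor 3. Cells were collected 7 days after treatment, and by the series' design text each library is 1 pup. All 10 pups carry the transgene, so no library shows the factors in cells without it. The gate used for the sort was not given in the sources used here. In bulk RNA, fewer cells of a type and less RNA per cell cannot be told apart.

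Library totals ran from 17859006 to 22587871 estimated reads, and 13396 to 14702 genes had at least 10 reads in 9 libraries, against 16006 in PBS 4. The B cell precursor label was met by the markers Cd79a, Cd79b, Pax5, Ebf1, Igll1, Vpreb1, Rag1 and Rag2, which were read in all 10 libraries, Cd79a at 2541 to 3687 CPM and Pax5 at 759 to 1663 CPM. Cd79a, Pax5 (759 CPM against 906 to 1663), Ebf1 (460 against 570 to 869), Igll1 (793 against 986 to 1676) and Vpreb1 were lowest in PBS 4. Cd79b, Rag1 and Rag2 were lowest in other libraries. CPM are the reads of a gene scaled to a common library total. PBS 4 also had the highest sums of macrophage markers (124 CPM against 10.5 to 27.2) and of T cell markers (217 CPM against 16.9 to 36.5). The T cell markers were divided. Lck (140 CPM against 15.2 to 30.0), Cd3e (53.9), Trac (12.6), Cd4 (6.64) and Cd3g (3.69) were highest in PBS 4. Cd3d (0.147 CPM), Cd8a (0.147) and Cd8b1 (0) were not. The libraries of PBS 1 to PBS 3 share the start of their library names, which no other library has. They held 733 to 1095 CPM of neutrophil markers against 31.2 to 274 elsewhere and 138 to 432 CPM of erythroid markers against 1354 to 12302 elsewhere. They also held 42.1 to 57.9 CPM of the Y-linked Eif2s3y against 0 to 2.80 elsewhere, and 0.0533 to 0.336 CPM of Xist against 112 to 687 elsewhere. Each of these measures therefore moves with PBS 1 to PBS 3, and the fold changes of the genes with the smallest p are also given without those libraries.

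Promoter sequences from RefSeq on GRCm38.p6, each 300 bases long from 250 before to 50 after an annotated start, were matched by symbol to 37 of the 49 genes. The genes without an entry were Eif1a, Eif2b3, Eif3e, Eif3h, Eif3i, Eif3j2, Eif4e1b, Eif4e3, Eif4ebp1, Eif4ebp3, Eif4g2 and Eif6. Among the 37 genes, 10 (27.0%) held CACGTG, the E-box letters read by Myc and related factors, compared with 8.09% of all 27025 genes in the table and 11.9% of its 9044 tested protein-coding genes. These 10 were Eif1b, Eif3a, Eif3f, Eif3k, Eif4a1, Eif4e, Eif4g1, Eif4h, Eif5a and Eif5a2. CCGGAAG, searched on both strands as the core read by ETS factors, was in 15 (40.5%), compared with 9.93% and 21.5%. TATAAA on either strand was in 3 (8.11%), compared with 15.7% and 8.32%, and TGACGTCA was in 0 of 37, compared with 2.03% and 3.69%. A 5′ terminal oligopyrimidine start, taken as a C at the annotated start followed by at least 4 bases that are C or T, was found in Eif3f alone (2.70%, compared with 3.01% and 3.07%). A gene counted where any of its windows matched, with 49 windows for the 37 genes and 32851 for all 27025. The median GC content was 62.7% for the 37 genes and 52.75% for all genes in the table. The shares were not adjusted for GC content or for the number of windows. Such matches describe letters in a window and were not tested as sites.

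The windows below run from 250 bases before to 20 bases after the annotated start, 5′ to 3′ on the gene's strand, and matches are in capitals. The first 4 belong to genes with the smallest unadjusted p in the comparison of the treatments, Eif4e and Eif3f to genes that carry the E-box. The positions are chr16:23107218-23107487 on the plus strand for Eif4a2, chr12:111537851-111538120 on the plus strand for Eif5, chr11:69672404-69672673 on the minus strand for Eif4a1 and chr19:5366563-5366832 on the plus strand for Eif1ad. Eif4e is shown by the later of its annotated starts, chr3:138527018-138527287 on the plus strand, and Eif3f lies at chr7:108934165-108934434 on the plus strand.
Eif4a2: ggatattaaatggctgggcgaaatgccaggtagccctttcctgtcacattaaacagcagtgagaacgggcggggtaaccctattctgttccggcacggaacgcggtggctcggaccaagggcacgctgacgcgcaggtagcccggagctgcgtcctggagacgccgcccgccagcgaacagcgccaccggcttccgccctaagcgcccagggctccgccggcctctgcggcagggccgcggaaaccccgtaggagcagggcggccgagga
Eif5: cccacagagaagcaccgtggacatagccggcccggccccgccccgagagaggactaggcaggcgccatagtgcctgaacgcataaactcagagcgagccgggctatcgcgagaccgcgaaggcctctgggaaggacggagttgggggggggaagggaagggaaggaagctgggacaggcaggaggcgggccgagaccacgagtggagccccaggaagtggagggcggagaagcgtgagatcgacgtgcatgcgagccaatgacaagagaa
Eif4a1: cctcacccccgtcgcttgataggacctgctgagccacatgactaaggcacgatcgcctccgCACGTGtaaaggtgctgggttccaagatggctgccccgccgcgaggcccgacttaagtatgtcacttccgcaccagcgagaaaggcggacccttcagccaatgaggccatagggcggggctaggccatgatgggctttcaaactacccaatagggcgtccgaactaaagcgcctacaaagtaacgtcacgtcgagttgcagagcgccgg
Eif1ad: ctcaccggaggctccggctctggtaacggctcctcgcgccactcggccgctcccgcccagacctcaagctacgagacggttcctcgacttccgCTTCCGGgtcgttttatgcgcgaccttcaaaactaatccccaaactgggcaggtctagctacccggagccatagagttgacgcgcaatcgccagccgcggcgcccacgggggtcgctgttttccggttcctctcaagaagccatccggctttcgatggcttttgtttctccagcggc
Eif4e: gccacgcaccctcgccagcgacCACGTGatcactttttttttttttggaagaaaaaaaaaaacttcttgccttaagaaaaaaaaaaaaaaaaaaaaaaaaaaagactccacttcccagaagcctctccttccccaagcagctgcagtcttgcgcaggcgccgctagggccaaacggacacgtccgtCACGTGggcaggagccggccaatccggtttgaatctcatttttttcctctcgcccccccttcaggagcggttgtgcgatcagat
Eif3f: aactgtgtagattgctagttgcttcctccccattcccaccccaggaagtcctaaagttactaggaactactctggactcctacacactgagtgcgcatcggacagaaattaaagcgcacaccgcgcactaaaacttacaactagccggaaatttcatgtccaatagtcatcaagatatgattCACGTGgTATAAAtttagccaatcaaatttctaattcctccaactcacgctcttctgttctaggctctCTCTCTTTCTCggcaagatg
Eif4a2 and Eif5 have no match in these windows. Eif4a1 has 1 E-box, Eif1ad has the ETS core on its opposite strand, and this Eif4e start has 2 E-boxes. Eif3f has the E-box, TATAAA and the pyrimidine tract, which begins at the start itself. No 2 matches overlap in the 6 windows.

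Levels between genes are given in TPM, which scale reads by transcript length as well as by library total. The mean over 10 libraries ran from 1.01 TPM for Eif5a2 to 1043 TPM for Eif1 among the 48 genes read, with a median of 92.6 TPM over all 49 genes. Eif1, the guardian of start codon choice, ranked 152nd of all genes, and Eif5a, which helps ribosomes through difficult peptide bonds, ranked 161st at 1013 ± 70.1 TPM (SD, n = 10). The next gene was Eif4g2, at 630 ± 131 TPM.

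**Figure D1:**
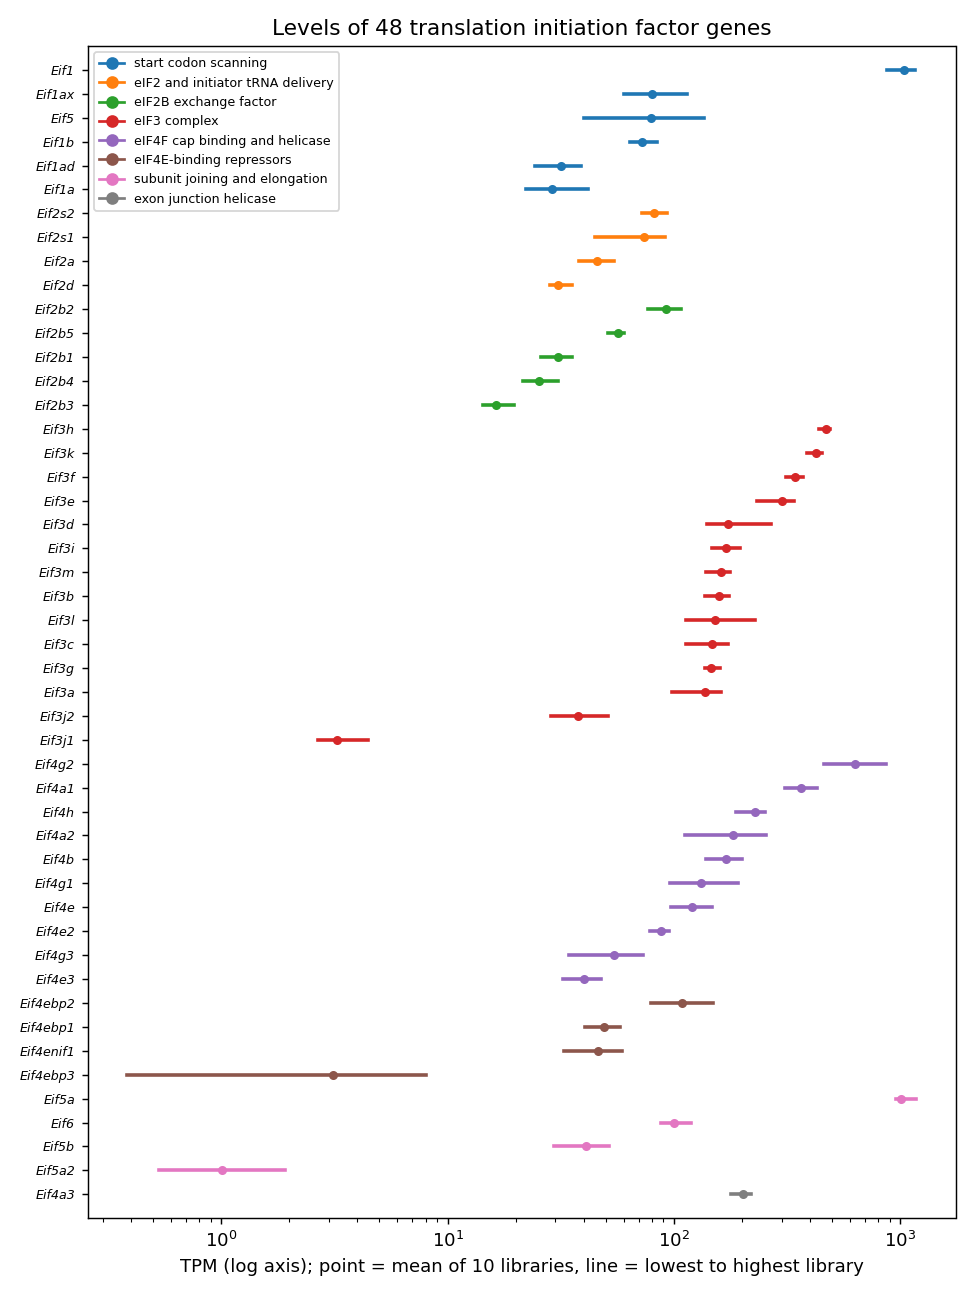
Mean TPM of the 48 initiation factor genes with reads, on a log axis, grouped and coloured by role, with a line from the lowest to the highest of the 10 libraries. Eif1 and Eif5a lie at 1043 and 1013 TPM, most eIF3 subunits lie between 137 and 470 TPM, and Eif5a2, Eif4ebp3 and Eif3j1 lie at 1.01 to 3.24 TPM.

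Among the genes of start codon scanning, Eif1 exceeded its paralogue Eif1b by 14.5 times per length, and Eif1b stood at 72.2 TPM. The X-linked Eif1ax, which encodes eIF1A, stood at 80.3 TPM and the autosomal Eif1a at 28.9 TPM, the lowest of the group. Eif5, the GTPase-activating partner of eIF2, stood at 79.4 ± 29.3 TPM, the widest spread of the group in relation to its mean. Eif1ad, an eIF1A-domain protein, stood at 31.8 TPM.

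The eIF2 subunits Eif2s2 and Eif2s1 were at 81.5 ± 6.30 and 73.7 ± 14.0 TPM, a difference within their spread. Eif2a and Eif2d, which can deliver tRNA without eIF2, were at 45.7 and 30.8 TPM. The 5 subunits of eIF2B were unequal, from 16.4 ± 1.58 TPM for Eif2b3 to 92.6 ± 8.89 TPM for Eif2b2. The catalytic subunit gene Eif2b5 lay between them at 56.5 ± 3.15 TPM, and the ranges of these 3 genes did not overlap.

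The eIF3 genes formed 3 tiers. Eif3h (470 ± 18.1 TPM), Eif3k (425), Eif3f (342) and Eif3e (302) lay, by their means, above the other 8 core subunits, which ran from 137 TPM for Eif3a to 173 TPM for Eif3d. The j subunit, a loosely bound partner encoded by 2 near-identical genes, was far lower, with 37.7 ± 6.78 TPM for Eif3j2 and 3.24 ± 0.491 TPM for Eif3j1. Reads that fit both copies were divided between them in the deposited estimates, and the split is therefore uncertain.

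Within the cap-binding group, Eif4e stood at 121 ± 17.1 TPM, Eif4e2 at 87.8 and Eif4e3 at 39.9. Of the scaffolds, Eif4g2, which lacks the eIF4E-binding region, exceeded Eif4g1 by 4.84 times on average and by 3.43 to 6.43 times in single libraries. Eif4g3 was at 54.6 TPM, below Eif4g1 in each library. The helicase gene Eif4a1 was at 365 ± 40.7 TPM and its paralogue Eif4a2 at 182 ± 50.2 TPM. The helicase cofactors Eif4h and Eif4b were at 228 and 171 TPM.

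Of the proteins that block eIF4E, Eif4ebp2 was the highest at 109 ± 19.8 TPM, Eif4ebp1 stood at 49.1 ± 5.17 TPM, and Eif4ebp3 was near the floor at 3.13 ± 2.67 TPM, with a range from 0.160 to 4.03 CPM. Eif4enif1, which carries eIF4E into the nucleus, was at 46.1 TPM. Among the late factors, Eif6, which keeps the subunits apart, was at 99.95 TPM, Eif5b at 41.1, and Eif5a2 at 1.01 TPM, which was 0.000544 to 0.00198 times Eif5a in single libraries. Eif4a3, the helicase of the exon junction complex that shares the family's name, was at 201 ± 13.8 TPM.

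The deposited transcript estimates place much of the signal of some members in transcripts that GENCODE does not class as protein-coding. Coding transcripts made up 18.3% of the TPM of Eif4a2, 21.1% of Eif5b, 36.4% of Eif1ax, 38.6% of Eif4ebp1 and 55.0% of Eif1, as means over the 10 libraries. For Eif4a2 the largest class was nonsense-mediated decay (57.1%), with retained introns at 24.6%. TPM divides by length, so a short transcript counts for more than its reads, and these shares describe the authors' estimates and not protein output.

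The comparison between treatments asks how expression in these cells differed after Poly(A:U). No initiation factor gene passed the test. With edgeR's quasi-likelihood test and Benjamini-Hochberg adjustment over 13729 genes, 0 of 48 members had an adjusted p below 0.05, where 0 genes of all (0.0%) did. Unadjusted p was below 0.05 for 5 members, Eif4a2, Eif4a1, Eif5, Eif1ad and Eif3j2, all with positive log2 fold changes, against 7.3% of all genes tested, 4.11% higher and 3.19% lower. The members divided evenly, with 24 positive and 24 negative log2 fold changes and a median of -0.001, beside -0.002 and 49.4% positive over all tested genes. Both counts rested on single libraries and on PBS 1 to PBS 3. The split was 33 positive to 15 negative without PBS 4 or without Poly(A:U) 5, and 16 to 32 without PBS 1 to PBS 3. It was 12 to 36 in a fit with a term for each number code in the library names, PBS 1 to PBS 3 sharing 1 term. That fit compares the treatments only between PBS 4 and Poly(A:U) 5 and between PBS 5 and Poly(A:U) 1. No other libraries share a number code across treatments. The letters RNA, which the names share more widely, were not used as a term. The 5 members with a small unadjusted p became 1 when any of PBS 1, PBS 2, PBS 3 or Poly(A:U) 2 was left out. Groups overlapped for each of the 48 members, where 0.947% of all tested genes had groups that did not overlap, 0.779% higher and 0.168% lower.

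The interval around most members was narrow. The 95% interval of the log2 fold change excluded a 2-fold change in either direction for 46 of 48 members and a 1.5-fold change for 44 of 48, and over all tested genes 82.7% excluded a 2-fold change. The median SE was 0.100 for members and 0.139 for all genes. Summed over the members, the level was 10709 ± 654 CPM after PBS and 10963 ± 286 CPM after Poly(A:U) (SD, n = 5 each), with single libraries between 10128 and 11813 CPM after PBS and between 10698 and 11452 CPM after Poly(A:U). PBS 4 had the highest sum, and the groups overlapped.

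**Figure D2:**
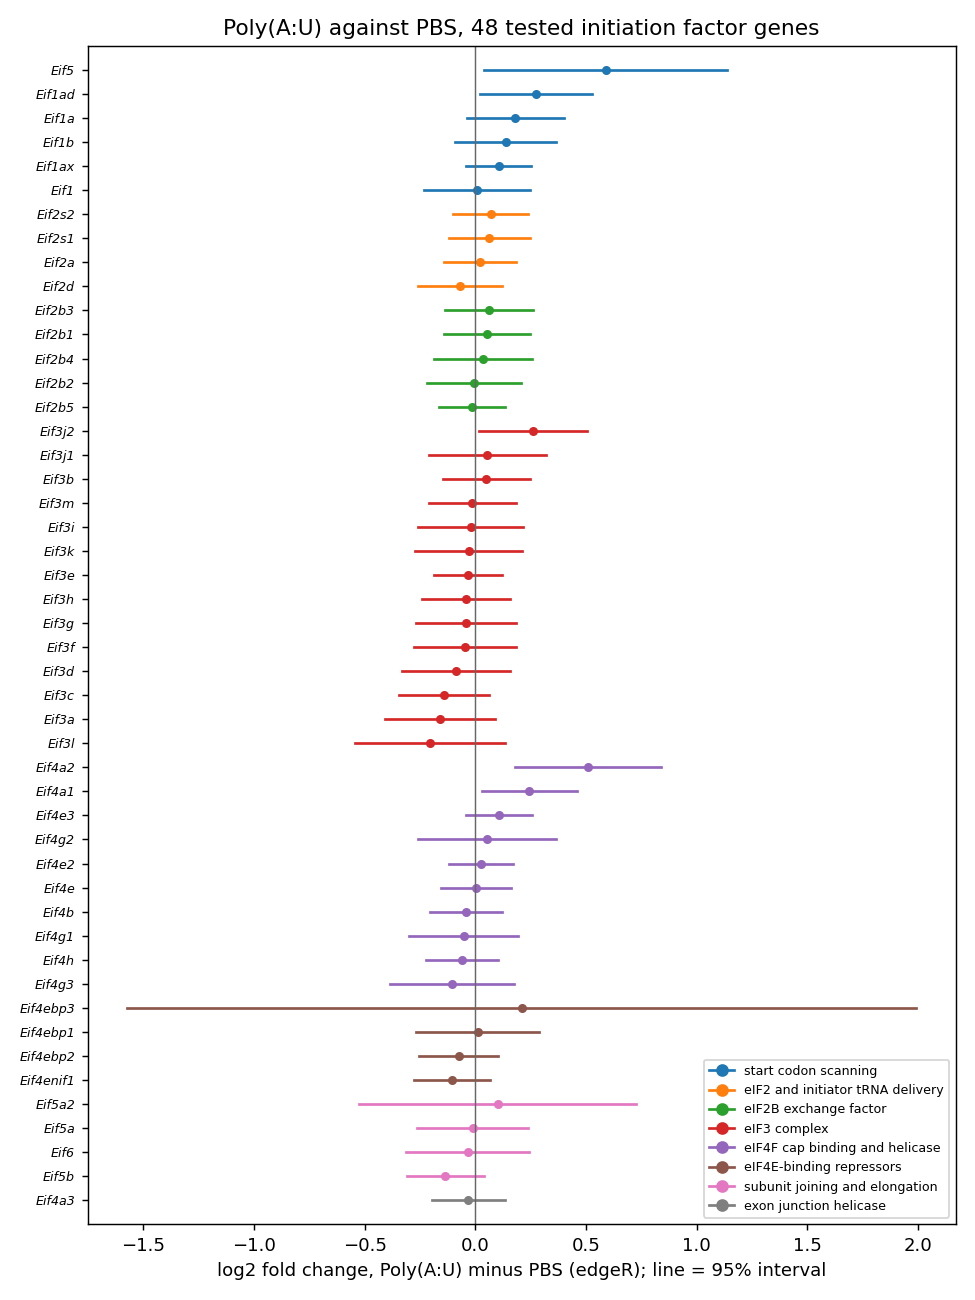
log2 fold change of Poly(A:U) over PBS with its 95% interval from edgeR for the 48 tested genes, grouped by role and ordered within each role. The intervals of 5 genes lie above 0 before adjustment, none of them past the adjusted threshold, and the interval of Eif4ebp3, a gene of few reads, spans -1.57 to 1.99.

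The start codon scanning genes had the highest median of the roles. All 6 had positive log2 fold changes, with a median of 0.16, a range from 0.01 for Eif1 to 0.59 for Eif5, and 0 of 6 called. Eif5, Eif1ad and Eif1a were lower in PBS 1 to PBS 3 than in all 7 other libraries, and without those 3 libraries the median was 0.05 with 4 of 6 positive. Eif5 (chromosome 12, 111538016 to 111546752 in mm10) had 89.4, 96.9, 106, 184 and 211 CPM in PBS 1 to PBS 5 and 170, 234, 194, 196 and 261 CPM after Poly(A:U) 1 to 5. PBS 1 to PBS 3 lay below all Poly(A:U) libraries, and PBS 4 and PBS 5 lay among them. The log2 fold change was 0.59 ± 0.25 (SE), with an adjusted p of 0.677 by edgeR (0.0376 unadjusted).

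Eif1ad was also lowest in PBS 1 to PBS 3. The gene lies on chromosome 19 (5366741 to 5371526). It had 43.5, 44.5, 42.4, 53.0 and 62.3 CPM after PBS and 61.2, 66.3, 55.2, 61.9 and 57.5 CPM after Poly(A:U), with a log2 fold change of 0.27 ± 0.12 (adjusted p = 0.677, edgeR). PBS 5 lay within the Poly(A:U) range and the other 4 PBS libraries below it. Eif1a gave 0.18 ± 0.10, Eif1b 0.14 ± 0.11 and Eif1ax 0.11 ± 0.07.

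The helicase genes gave the smallest unadjusted p of the members. Eif4a2 (chromosome 16, 23107444 to 23114136) had 149, 155, 138, 168 and 254 CPM in PBS 1 to PBS 5 and 207, 257, 260, 280.5 and 246.5 CPM after Poly(A:U) 1 to 5. Its PBS mean was 173 ± 46.5 CPM and its Poly(A:U) mean 250.1 ± 27.3 CPM. All 5 Poly(A:U) libraries lay above the other 4 PBS libraries, and PBS 5 lay inside their range. The log2 fold change was 0.51 ± 0.15, with an adjusted p of 0.677 by edgeR (0.00542 unadjusted).

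Leaving out PBS 5 brought Eif4a2 past the threshold. Without that library the log2 fold change was 0.67 ± 0.10 (adjusted p = 0.0360, edgeR), and it was the only member among 18 genes called (0.13% of 13899 tested). Leaving out any other single library gave 0.44 to 0.57 and no call.

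Eif4a1, the main helicase of eIF4F (chromosome 11, 69666936 to 69672423), had 399, 402, 414, 452 and 435 CPM after PBS and 453.5, 568, 528, 542 and 440.2 CPM after Poly(A:U). Poly(A:U) 5 lay within the PBS range, and the other 4 lay above all PBS libraries, Poly(A:U) 1 only just above PBS 4. Its log2 fold change was 0.24 ± 0.10 (adjusted p = 0.677, edgeR). The other 8 tested genes of the group ranged from -0.10 for Eif4g3 to 0.11 for Eif4e3, and Eif4e itself gave 0.00 ± 0.07, with 119 ± 6.12 CPM after PBS and 121 ± 9.34 CPM after Poly(A:U).

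Most eIF3 genes had small negative values. Of 14, 11 were negative and 3 positive, with a median of -0.04, and none was called. Eif3j2 (chromosome 18, 43475418 to 43477796) stood apart from them at 45.6, 49.5, 45.4, 67.8 and 57.3 CPM after PBS and 61.6, 61.7, 66.4, 67.3 and 68.1 CPM after Poly(A:U). Its log2 fold change was 0.26 ± 0.11 (adjusted p = 0.677, edgeR). PBS 4 lay among the highest libraries for this gene. Eif3j1 gave 0.05 ± 0.12. Summed over the 14 eIF3 genes, PBS 4 had 3927 CPM and the other PBS libraries 3297 to 3476 CPM. The Poly(A:U) libraries had 3252 to 3505 CPM, so PBS 4 alone lay above them. Without PBS 1 to PBS 3, when only PBS 4 and PBS 5 stood for PBS, 1 of 14 was positive, with a median of -0.09.

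The lowest value of any member, -0.21 ± 0.16 for Eif3l, rested on 1 library. Eif3l (chromosome 15, 79075179 to 79094405) had 352 CPM in PBS 4, 193 to 209 CPM in the other 4 PBS libraries and 184 to 222 CPM after Poly(A:U), and without PBS 4 its log2 fold change was 0.00. PBS 4 was also the highest library for Eif3c (472 CPM against 334 to 396.5), Eif3d (275 CPM against 188 to 223) and Eif3i (162 CPM against 114 to 142). Eif3d and Eif3i were named here after their values were seen. PBS 4 is the library with the highest sums of macrophage and T cell markers, the latter mainly from Lck and Cd3e. The part of such reads in these levels was not tested. Eif3c gave -0.14 ± 0.09 and Eif3a -0.16 ± 0.12.

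**Figure D3:**
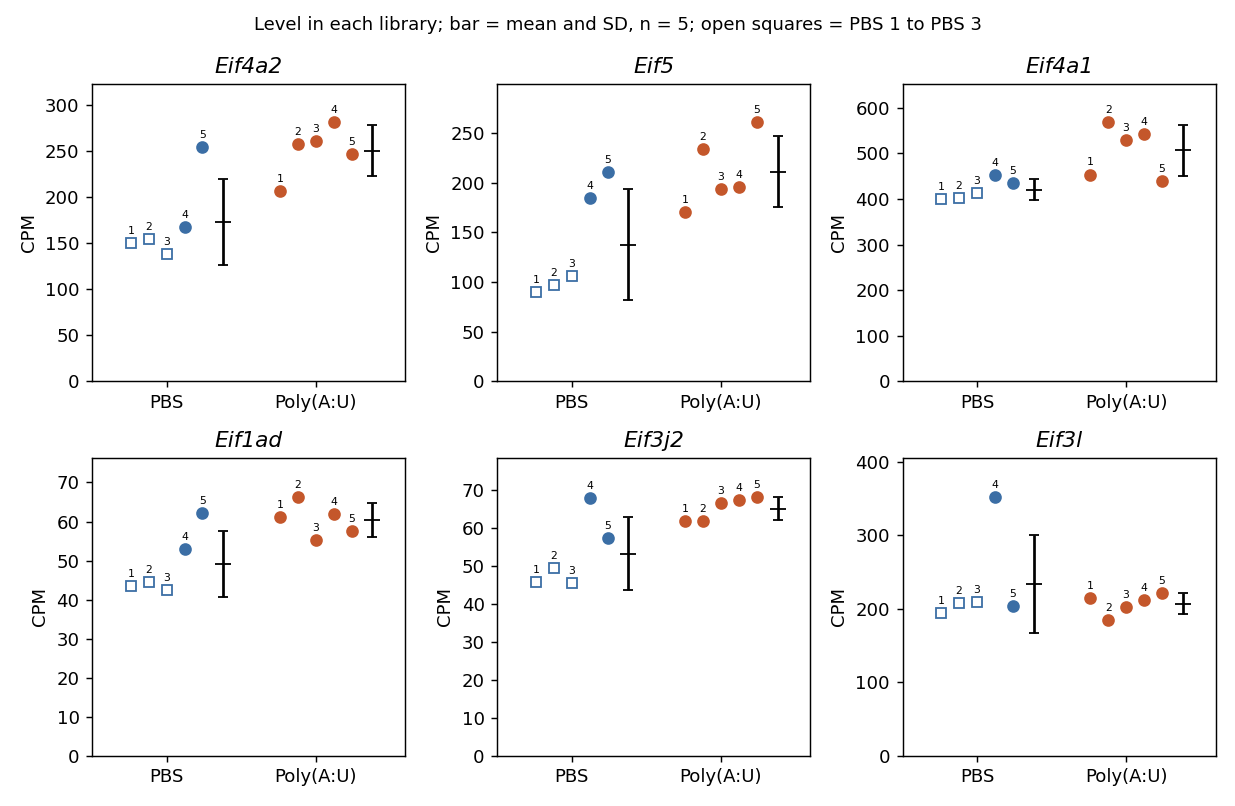
CPM in each library for the 5 genes with the smallest unadjusted p and for Eif3l, with the mean and SD of each group (n = 5) and library numbers above the points. Open squares mark PBS 1 to PBS 3, which are the lowest 3 of all libraries for the first 5 genes, while Eif3l has a single high point in PBS 4.

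The other roles held no called gene. The eIF2 genes had 3 positive and 1 negative value with a median of 0.04, and the eIF2B genes 3 positive and 2 negative with a median of 0.04, all 9 between -0.07 and 0.07. Eif2s1, whose protein is the target of the stress kinases, had 116 ± 9.75 CPM after PBS and 124 ± 12.3 CPM after Poly(A:U). The eIF4E-binding repressors were split 2 and 2, with Eif4ebp1 at 38.7 to 40.5 CPM after PBS and 30.0 to 50.2 CPM after Poly(A:U), a wider range around nearly the same mean. Eif4ebp3, with few reads, gave 0.21 ± 0.81, which leaves its direction unknown. Eif4ebp2 gave -0.08 ± 0.08 and Eif4enif1 -0.10 ± 0.08. Of the late factors 1 was positive and 3 negative, with Eif5b at -0.13 ± 0.08 and Eif5a at -0.01 ± 0.12. Eif4a3 gave -0.03 ± 0.08.

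Limma voom with sample weights, which changes both the test and the weight of each library, called 4 members. It gave PBS 1 to PBS 3 weights of 1.21, 2.04 and 1.58, PBS 4 a weight of 0.222 and PBS 5 a weight of 0.717, and Poly(A:U) 5 had 0.335 against 3.58 for Poly(A:U) 3. PBS was thus represented mainly by PBS 1 to PBS 3. The fit called 870 genes (6.34%), 465 higher (3.39%) and 405 lower (2.95%). Members called were Eif4a2 (0.65 ± 0.12), Eif5 (0.80 ± 0.16), Eif4a1 (0.31 ± 0.07) and Eif3j2 (0.39 ± 0.07), each with an adjusted p of 0.0325 by limma, so 4 of 48 were called higher and 0 lower. DESeq2's Wald test called 13 genes (0.0947%) and 0 members.

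The genes with the smallest p share a pattern over libraries. PBS 1 to PBS 3 lay below all 7 other libraries for 8 of 48 members, Eif1a, Eif1ad, Eif2b3, Eif3b, Eif3j2, Eif4a1, Eif4a2 and Eif5, where 6.88% of all tested genes did so. They lay above all 7 for 1 member, Eif5b, where 4.27% of all tested genes did. The mean over PBS 1 to PBS 3 was 97.4 CPM for Eif5 against 207 CPM over the other 7 libraries, and 147 CPM for Eif4a2 against 239 CPM. For Eif5b the means were 175 and 154 CPM.

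The 5 genes with the smallest p were chosen in a comparison where PBS 1 to PBS 3 are 3 of the 5 PBS libraries. Low values in those libraries, and a smaller difference without them, are therefore partly built into the choice. Without PBS 1 to PBS 3 the differences between treatments were smaller for these 5 genes. The log2 fold change was then 0.22 for Eif4a2, 0.16 for Eif4a1, 0.07 for Eif5, 0.04 for Eif1ad and 0.02 for Eif3j2, and 0 of 15199 genes tested were called (0.0%) by edgeR. The summed level of the members was then 11278 CPM in the 2 remaining PBS libraries and 10963 CPM after Poly(A:U), so its difference turned from 254 to -315 CPM. This turn rested on PBS 4 at 11813 CPM, since PBS 5 at 10744 CPM lay below the Poly(A:U) mean. The sign of the log2 fold change turned for 16 of 48 members, 12 of them from positive to negative. With the number codes of the library names as terms, Eif4a2 gave 0.08, Eif5 0.05, Eif3j2 0.00, Eif1ad -0.01 and Eif4a1 -0.04. These values rest only on PBS 4 with Poly(A:U) 5 and PBS 5 with Poly(A:U) 1, whose names share a part. The neutrophil, erythroid, Xist and Y-linked reads that mark PBS 1 to PBS 3 move with these genes, and their part was not tested. The name start and the neutrophil, erythroid, Xist and Y-linked reads all separate the same 3 libraries from the other 7, so they cannot be told apart from one another.

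In 2 cases a PBS and a Poly(A:U) library share a number in their names. Poly(A:U) 1 minus PBS 5 was -0.29 for Eif4a2 and -0.31 for Eif5 on the log2 scale, and Poly(A:U) 5 minus PBS 4 was 0.56 for Eif4a2 and 0.50 for Eif5. The direction thus differed between the 2 pairs for both genes. Each is 1 library against 1, with no replicate check.

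**Figure D4:**
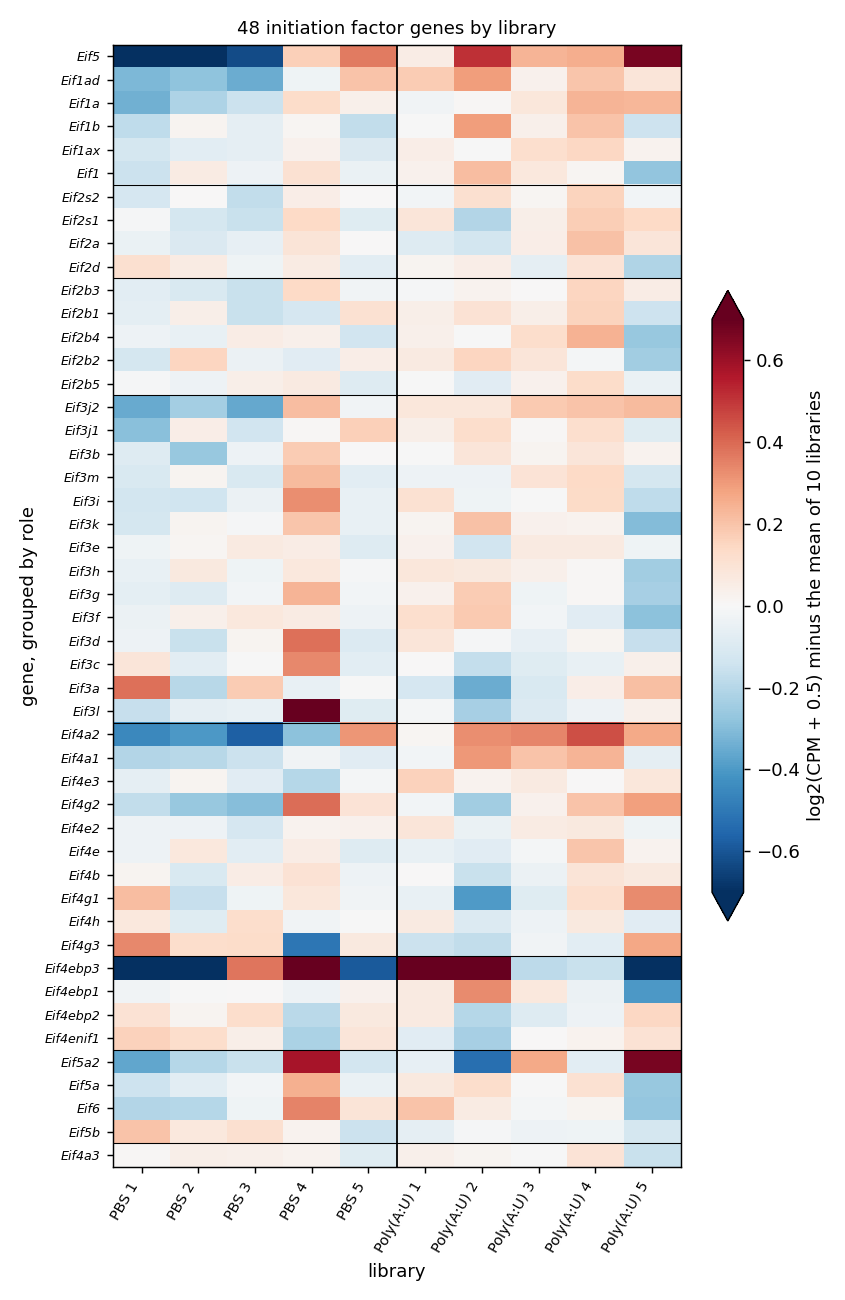
log2(CPM + 0.5) of the 48 tested genes in each library, minus the gene's mean over the 10 libraries, with genes grouped by role and PBS to the left of the line. Eif5, Eif1ad, Eif3j2, Eif4a2 and Eif4a1 are low in PBS 1 to PBS 3, PBS 4 is high for Eif3l, Eif3d, Eif3c and Eif3i, and Poly(A:U) 5 is low for Eif3h, Eif3f and Eif3k.

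Ratios of paralogues within a library need no scaling between libraries. Of 12 ratios 11 had at least 10 reads for both genes in every library, and Eif4ebp3 over Eif4ebp2 did not. None of the 11 passed an exact two-sided permutation test of 5 against 5 libraries, whose smallest possible p is 0.00794. The smallest p was 0.0794 (0.291 adjusted over the 11 ratios, exact test), reached by 3 ratios. Eif4a2 over Eif4a1 had a mean log2 ratio of -1.32 ± 0.31 in PBS and -1.02 ± 0.13 in Poly(A:U), with PBS 5 the highest library of all at -0.78. Eif3j2 over Eif3j1 had 2.21 ± 0.20 in PBS and 2.43 ± 0.14 in Poly(A:U), and Eif1b over Eif1 had -3.74 ± 0.05 and -3.61 ± 0.10. Between the binding protein and its target, Eif4ebp1 over Eif4e was -1.58 ± 0.09 in PBS and -1.60 ± 0.33 in Poly(A:U).

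The transcript classes of Eif4a2 also varied by library. Nonsense-mediated decay transcripts held 66.4%, 60.6%, 64.6%, 68.3% and 52.4% of its TPM in PBS 1 to PBS 5 and 60.3%, 48.4%, 41.8%, 57.1% and 51.3% in Poly(A:U) 1 to 5. Retained introns held 20.5% ± 5.7 in PBS and 28.7% ± 5.2 in Poly(A:U), and coding transcripts 17.0% ± 1.0 and 19.5% ± 3.9 (SD, n = 5 each). PBS 5, the PBS library with the most Eif4a2, was the PBS library with the highest retained intron share (30.2%) and the lowest decay share. The groups overlapped for each class. These shares were not tested.

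**Figure D5:**
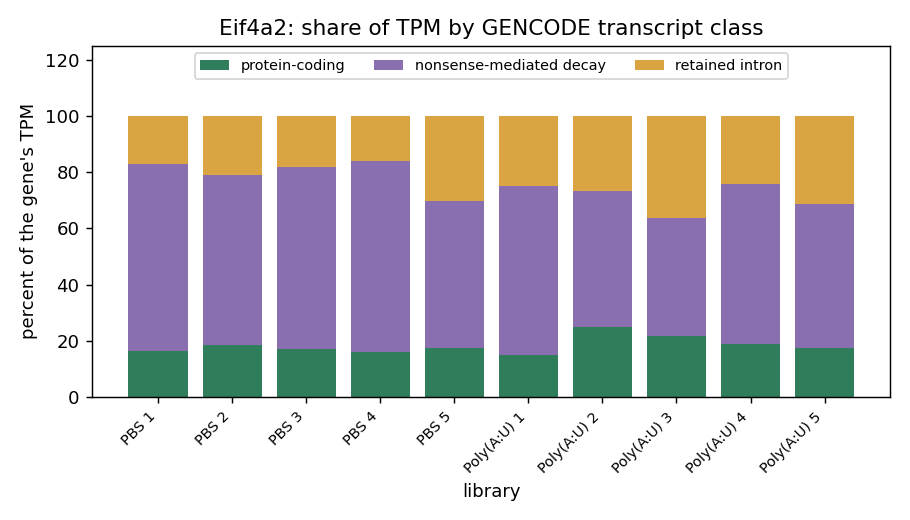
Share of the TPM of Eif4a2 held by protein-coding, nonsense-mediated decay and retained intron transcripts in each library, as stacked bars that add to 100 percent. The decay share is 60.6% to 68.3% in PBS 1 to PBS 4 and 52.4% in PBS 5, and 41.8% to 60.3% in Poly(A:U).

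In Eif5b, the GTPase that joins the subunits, retained intron transcripts held 76.0% ± 4.7 of the TPM in PBS and 63.9% ± 9.3 in Poly(A:U). The groups overlapped, with 68.0% to 79.95% in PBS and 50.0% to 74.3% in Poly(A:U). The coding share was 21.4% ± 2.0 and 20.8% ± 3.3, and the remaining classes held 2.6% ± 5.9 and 15.3% ± 12.0. None of these shares was tested. In Eif1ax retained introns held 63.7% ± 2.8 and 63.4% ± 4.5. Eif5 was mostly coding in both groups, at 86.6% ± 5.7 and 84.8% ± 5.1.

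Among the members, 6 hold small nucleolar RNA genes between their start and end on the same strand, in the GENCODE M21 annotation. Small Cajal body RNA genes were counted with them, and whether they lie in introns was not checked. The 6 members are Eif4a2 with 5, Eif4a1 with 3, Eif3a with 2, and Eif5, Eif4g1 and Eif4g2 with 1 each. Of these host genes 4 of 6 were above 0 in log2 fold change (median 0.15), beside 20 of 42 and -0.01 for the other members. Eif4a2, Eif4a1 and Eif5 are also among the members lowest in PBS 1 to PBS 3. Over all tested protein-coding genes, 132 of 220 hosts were positive with a median of 0.03, beside 5710 of 11242 and 0.00 for the rest.

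Genes that control or assist initiation, 47 of them, were read beside the members. Of 46 tested, 0 passed edgeR's test (0.0% of all tested genes), 24 were positive and 22 negative, and the median was 0.03. Among the eIF2 kinases and phosphatase subunits, 2 were positive and 4 negative. Eif2ak2, the kinase that senses double-stranded RNA, had 35.4 ± 4.88 CPM after PBS and 32.0 ± 10.9 CPM after Poly(A:U). Eif2ak3, the kinase of the endoplasmic reticulum, was the highest of the 4 kinases at 283 ± 72.7 and 249 ± 26.6 CPM. PBS 1 to PBS 3 held 319 to 349 CPM of it, above the 174 to 281 CPM of the other 7 libraries. Without PBS 1 to PBS 3, 5 of the 6 genes of this list were positive. Ppp1r15b, the constitutive phosphatase subunit that restores eIF2, had 184 ± 11.7 and 216 ± 29.6 CPM, with 0.20 ± 0.08 as log2 fold change and an adjusted p of 0.677 by edgeR (0.0336 unadjusted). For this gene PBS 1 to PBS 3, at 182 to 192 CPM, overlapped the other 7 libraries, at 166 to 260 CPM. Without PBS 1 to PBS 3 Ppp1r15b gave 0.22 ± 0.13 (adjusted p = 0.8565, edgeR), so its difference was not smaller.

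The inducible subunit gene Ppp1r15a varied widely. It had 19.6, 24.3, 20.3, 24.8 and 81.2 CPM after PBS and 68.8, 112, 53.6, 47.8 and 28.3 CPM after Poly(A:U). Its log2 fold change was 0.86 ± 0.52 (adjusted p = 0.70, edgeR), and its groups overlapped. It was named after its values were seen. PBS 5 lay above 4 of the 5 Poly(A:U) libraries. PBS 1 to PBS 3 lay below all 7 others, and without them the log2 fold change was 0.23 ± 0.67 (adjusted p = 0.992, edgeR).

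Of mTORC1 and its regulators 5 were positive and 6 negative, the smallest p being that of Mtor itself, at 72.4 ± 9.66 and 63.2 ± 17.4 CPM (-0.23 ± 0.15). Its sign turned to 0.01 with the authors' deposited normalized values. Of the poly(A), MNK and helicase partners 5 were positive and 7 negative, with Paip2b at 42.4 ± 2.67 and 48.5 ± 6.46 CPM. Of the other initiation proteins 6 were positive and 2 negative, with Mcts2, a low-level gene, at 6.54 ± 1.35 and 8.41 ± 0.957 CPM.

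Elongation and termination factors had 6 positive and 3 negative values among 9 tested, and Gspt2 was not tested. Eef2k, the kinase that slows elongation by phosphorylating eEF2, had 187, 181, 206, 223 and 272 CPM after PBS and 262, 246, 274, 268 and 297 CPM after Poly(A:U). The log2 fold change was 0.30 ± 0.11, with an adjusted p of 0.677 by edgeR (0.0139 unadjusted). PBS 1 to PBS 4 lay below all Poly(A:U) libraries and PBS 5 within them, the order also seen for Eif4a2. PBS 1 to PBS 3 lay below all 7 other libraries, as they did for 5 of the 46 pathway genes tested and 6.88% of all tested genes. They lay above all 7 for 2 of the 46, Eif2ak3 and Pdcd4, where 4.27% of all tested genes did. Without PBS 1 to PBS 3 Eef2k gave 0.09 ± 0.11 (adjusted p = 0.992, edgeR). Limma voom with sample weights called Eef2k (0.40 ± 0.08, adjusted p = 0.0325) and Ppp1r15a (1.09 ± 0.30, adjusted p = 0.0482) among the 46, both higher.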

How the data were processed

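RNA was measured in 10 libraries of sorted leukemia initiating cells, 5 PBS and 5 Poly(A:U). The authors deposited estimated counts per transcript and TPM, per the file headers, and a whole-series table of normalized CPM signal from edgeR 3.38.4. The submitters' processing notes name DRAGEN and mm10. Counting settings, annotation and strand were not given in the sources used here, so reads of overlapping antisense genes may be included. Transcript lengths and effective lengths were used for length-scaled counts.

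Each file listed 142333 transcripts, of which 538 matched no GENCODE M21 gene (at most 0.0695% of reads). Estimated counts were summed per gene and rounded. For 20 of 49 members, Eif4a1, Eif4a2, Eif3j1 and Eif3j2 among them, sums were not whole within 0.02 reads in some library, so they share reads with another gene and their values are less certain. edgeR 4.0.16 (R 4.3.3) with filterByExpr (minimum count 10), TMM factors and the robust quasi-likelihood test compared the groups, with Benjamini-Hochberg adjustment over 13729 genes. On simulated counts of these 13729 genes, it recovered 36% of 1.5-fold, 64% of 2-fold and 92% of 4-fold changes in the comparison of Poly(A:U) with PBS. The simulated libraries were drawn independently around a common mean per gene, apart from the set changes. No libraries stood apart there as PBS 1 to PBS 3 do in the data, so these shares need not hold for the data. Alternatives used DESeq2 1.42.0, limma 3.58.1, other filters and scalings, and left-out libraries. Ratios were tested with scipy 1.17.1.

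Members, lists and tests were chosen with earlier results of these data known. Members named with values were those with an unadjusted p below 0.05, the 3 highest and 3 lowest fold changes at 5 CPM or more, the highest and lowest TPM of each role, both genes of each ratio, the 3 largest spreads, and untested genes. From each pathway list, genes with p below 0.05 or the smallest p were named, and other named genes were added for their role. The limit that 0 reads allow covers counting error only. A further B cell precursor marker is not reported here.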

Additional observations from a re-analysis of the deposited data

Results flagged for a closer look

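In 5 of 72 groups of 5 libraries examined, 1 library stood far from the other 4, where chance flags about 1 in 20 groups. Eif3l had 352 CPM in PBS 4 against 193 to 209 CPM in the other PBS libraries, and Eif5a2, the minor eIF5A paralogue, 4.77 CPM there against 2.25 to 2.73. Eif4a2 had 254 CPM in PBS 5 against 138 to 168 CPM. Eif4a3 had 173 CPM in PBS 5 against 184 to 188 CPM. Eif3h had 361 CPM in Poly(A:U) 5 against 429 to 451 CPM. PBS 4 and PBS 5 gave 2 of these values each.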

How the results depend on the processing

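At this depth Eif4ebp3 and Eif5a2 were read too little for a narrow interval. Genes called were 0 by edgeR, 13 by DESeq2 and 870 by limma voom with sample weights, and 0 to 18 over left-out libraries, the 18 without PBS 5. Members called were 0, with 4 by voom and 0 to 1 over left-out libraries, and pathway genes called were 0, with 2 by voom. Members with an unadjusted p below 0.05 fell from 5 to 1 without any of PBS 1, PBS 2, PBS 3 or Poly(A:U) 2, to 2 without Poly(A:U) 4 and to 3 without Poly(A:U) 3 or 5, and rose to 8 without PBS 4. The fit with all name terms compares the treatments only between PBS 4 and Poly(A:U) 5 and between PBS 5 and Poly(A:U) 1. The members' median log2 fold change was 0.0675 with voom and -0.0865 with all name terms, when 12 were positive and 36 negative. Their split was 33 to 15 without PBS 4 or without Poly(A:U) 5 and 16 to 32 without PBS 1 to PBS 3. The summed CPM of the members differed by -315 without PBS 1 to PBS 3, against 254 with all libraries. The negative difference rested on PBS 4 (11813 CPM), since PBS 5 (10744 CPM) lay below the Poly(A:U) mean.

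With all name terms, which rest on those library pairs alone, the sign turned for 22 of 48 members, 17 of them from positive to negative. Of the 8 members whose values were followed through every alternative (Eif1ad, Eif3a, Eif3c, Eif3j2, Eif3l, Eif4a1, Eif4a2 and Eif5), it turned for Eif1ad (-0.00616), Eif4a1 (-0.0425) and Eif3a (0.0214). Mtor turned with length-scaled counts (0.000667) or deposited CPM (0.0107). Over left-out libraries Eif3l ran from -0.270 to 0.00433. No ratio passed its test in any alternative. Without PBS 1 to PBS 3 the sign turned for Eif1a/Eif1ax (-0.0784), Eif4e2/Eif4e (-0.0349), Eif4g2/Eif4g1 (-0.149), Eif4g3/Eif4g1 (0.233), Eif4ebp1/Eif4ebp2 (-0.0256) and Eif5a2/Eif5a (-0.105), and with TPM for Eif4ebp1/Eif4e (0.125). Over left-out libraries Eif4e2/Eif4e ran from -0.00667 to 0.0581, Eif4g3/Eif4g1 from -0.178 to 0.0398, Eif4ebp1/Eif4ebp2 from -0.0666 to 0.205, Eif4ebp1/Eif4e from -0.124 to 0.0888 and Eif5a2/Eif5a from -0.134 to 0.312. The cause was not tested.

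Same-numbered libraries showed little tendency to deviate together (correlations of 0.0206, 0.14, 0.136, -0.133 and -0.183). These values cannot decide whether the replicate numbers pair pups, because differences between libraries within a group could mask a shared part. The highest correlation of any PBS with any Poly(A:U) library was 0.367, for PBS 4 with Poly(A:U) 5, which share a number code. PBS 5 with Poly(A:U) 1, which also share a code, gave 0.116. With a replicate block 0 genes, 0 members and 0 pathway genes were called, and the median was -0.00996. Eif4a2 gave 0.54 and Eif5 0.67 under the block.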
